A study of Homo sapiens with 6 samples.

Results

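Keratin genes in human 92.1 cells, an ocular melanoma line, were followed in 3 libraries of a derivative in which ALKBH3 was knocked down (shALKBH3) and in 3 control libraries (NC, labelled wild type). The labels do not say whether NC cells carry a control hairpin, or whether the knockdown derivative is 1 clone. Every keratin or keratin-associated protein gene with a listed transcript was taken, which gave 21 genes among the 11387 genes of the tables. In these tables every transcript has at least 0.5 FPKM in the higher of the 2 group means. The 21 genes were thus chosen by symbol and selected on FPKM in the compared libraries, and the level of any other keratin gene was not analysed here. FPKM are fragments scaled to transcript length and library size. The labels name no separate cultures behind the replicates of a group. The p-values therefore reflect the variation among these 6 libraries, part or all of which may be technical.

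Keratins are the intermediate filament proteins of epithelial cells. A filament forms only from pairs of an acidic type I and a basic type II keratin, so the partners are usually made together. Type II genes cluster on chromosome 12 and type I genes on chromosome 17, apart from the type I gene KRT18, which lies beside its partner KRT8. KRT7, KRT8, KRT18 and KRT19 are keratins of simple, 1-layered epithelia, and KRT80 is a type II keratin of many epithelia, grouped with them here. Hair keratins, by contrast, build the hair shaft, where cysteine-rich keratin-associated proteins cross-link them through disulfide bonds. Melanocytes rest mainly on another filament protein, vimentin, and keratins are not among their usual markers.

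Of the 21 genes, 12 were of hair type, 5 of simple epithelial type and 4 of stratified epithelial type. On chromosome 17 lie 14 of them and on chromosome 12 the other 7. In 20 genes both group means were at least 0.5 FPKM. The exception was KRT19, a keratin of ducts and glands, which averaged 0.324 ± 0.295 FPKM in shALKBH3 and 0.703 ± 0.452 FPKM in NC (SD, 3 libraries each) and so was listed through its NC level. No listed keratin lay outside the limit, so no value just beyond it can be given. The test took genes averaging 1 FPKM or more across both groups, which left 16 of the 21.

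The knockdown label was checked first. ALKBH3, a demethylase of alkylated DNA and RNA, was at 3.29, 3.60 and 4.24 FPKM in shALKBH3 replicates 1, 2 and 3, against 10.5, 10.6 and 9.19 FPKM in NC replicates 1, 2 and 3. It fell by 1.24 on the log2 scale of FPKM + 1 (SE 0.118, limma adjusted p = 0.00790), with the groups apart. Listed FPKM summed to between 326875 and 333987 in shALKBH3 libraries and to between 340950 and 361268 in NC libraries, and were not rescaled. Sequencing depth is unknown. Of 14 melanocyte markers 3 were listed, GPR143, RAB38 and MITF, and their summed level was 32.2 to 39.0 FPKM in shALKBH3 and 33.1 to 34.9 FPKM in NC. The pigment genes PMEL, MLANA, TYR, TYRP1 and DCT and the melanocyte factor SOX10 had no listed transcript.

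**Figure D1:**
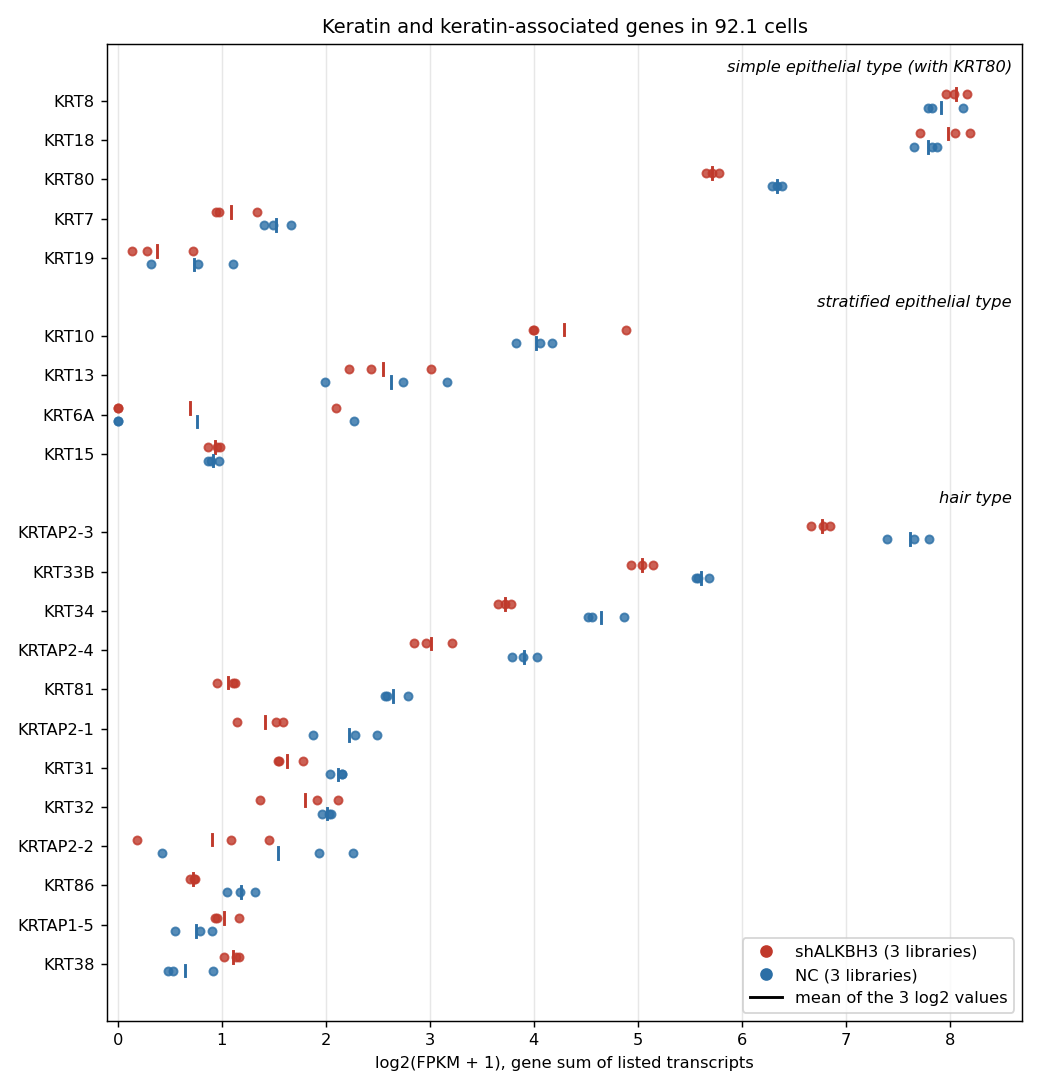
Level of each listed keratin gene, as log2(FPKM + 1) on the horizontal axis, in 3 shALKBH3 libraries (red, upper row of each gene) and 3 NC libraries (blue, lower row), with the mean of the 3 log2 values as a tick. KRT8 and KRT18 were highest in both groups, and in KRT81, KRT34, KRT33B, KRTAP2-3, KRTAP2-4 and KRT80 every red point lies left of every blue point.

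The partners KRT8 and KRT18 led the family in both groups. KRT8, the type II partner, was at 287, 249 and 262 FPKM in shALKBH3 replicates 1, 2 and 3, against 227, 221 and 279 FPKM in NC replicates 1, 2 and 3. KRT18, the type I partner, was at 291, 209 and 264 FPKM in shALKBH3, against 202, 227 and 235 FPKM in NC. Libraries of both groups overlapped in each gene. In the fit neither passed: the log2 difference was 0.14 for KRT8 (SE 0.111, limma adjusted p = 0.548) and 0.19 for KRT18 (SE 0.137, adjusted p = 0.501). The ratio of KRT8 to KRT18 was 1.06 ± 0.117 in shALKBH3 and 1.10 ± 0.110 in NC (SD, 3 libraries each), and it lay between 0.975 and 1.19 in all 6 libraries.

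The third level in both groups was that of KRTAP2-3, a hair keratin-associated protein gene. Its ratio to KRT8 was 0.407 ± 0.00875 in shALKBH3 and 0.815 ± 0.0648 in NC (SD, 3 libraries each). Its libraries did not overlap those of KRT18 in shALKBH3, and did in NC. KRT80, KRT33B, KRT34, KRT10 and KRTAP2-4 followed, with means between 7.10 and 51.7 FPKM in shALKBH3 and between 14.0 and 80.1 FPKM in NC. KRT13 was at 5.04 ± 1.79 FPKM in shALKBH3 and 5.54 ± 2.50 FPKM in NC. The 12 remaining genes lay between 0.324 and 2.57 FPKM in shALKBH3 and between 0.578 and 5.29 FPKM in NC. Neighbours in the order of these low genes overlapped over their libraries, except KRT15 over KRT86 in shALKBH3, and KRT81 over KRTAP2-1 and KRT86 over KRT15 in NC.

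Across the 6 libraries the largest relative difference of the family was that of KRT81, a type II keratin of the hair cortex. It was at 1.15, 0.944 and 1.19 FPKM in shALKBH3 replicates 1, 2 and 3, against 5.01, 4.93 and 5.92 FPKM in NC replicates 1, 2 and 3. All 3 knockdown libraries lay far below all 3 controls. The shALKBH3 mean was 79.3% lower, and KRT81 fell by 1.58 on the log2 scale of FPKM + 1 (SE 0.122, limma adjusted p = 0.00405). KRT81 passed without any single library, with adjusted p-values between 0.0201 and 0.0333.

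KRT34, a type I keratin of the hair cortex, was at 12.8, 11.6 and 12.2 FPKM in shALKBH3, against 22.6, 21.9 and 28.2 FPKM in NC. The groups did not overlap, and KRT34 fell by 0.93 on the log2 scale (SE 0.116, adjusted p = 0.0233). KRT33B, a close relative of KRT34, was at 34.5, 32.0 and 29.6 FPKM in shALKBH3, against 46.8, 46.1 and 50.6 FPKM in NC. It fell by 0.57 on the log2 scale (SE 0.0870, adjusted p = 0.0408), with the mean 33.0% lower. KRT34 missed the threshold when shALKBH3 replicate 1, 2 or 3 was left out (limma adjusted p = 0.0688, 0.102 and 0.115) and when NC replicate 1 was (0.0862). KRT33B missed it whichever of the 6 libraries was left out (0.0720 to 0.154), and also when the libraries were rescaled to equal sums (0.0626).

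KRTAP2-3 was at 114, 101 and 109 FPKM in shALKBH3 replicates 1, 2 and 3, against 201, 168 and 222 FPKM in NC replicates 1, 2 and 3. It fell by 0.85 on the log2 scale (SE 0.118, adjusted p = 0.0298), with no overlap between groups. KRTAP2-4, its neighbour on the chromosome, was at 8.28, 6.20 and 6.80 FPKM in shALKBH3, against 12.8, 15.3 and 13.9 FPKM in NC. It fell by 0.90 on the log2 scale (SE 0.129, adjusted p = 0.0334), and its groups also stood apart. Of the 6 fits that leave out 1 library, KRTAP2-3 passed only without NC replicate 2 and KRTAP2-4 only without shALKBH3 replicate 1. The highest adjusted p-values were 0.128 for KRTAP2-3 without NC replicate 1 and 0.138 for KRTAP2-4 without shALKBH3 replicate 3.

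**Figure D2:**
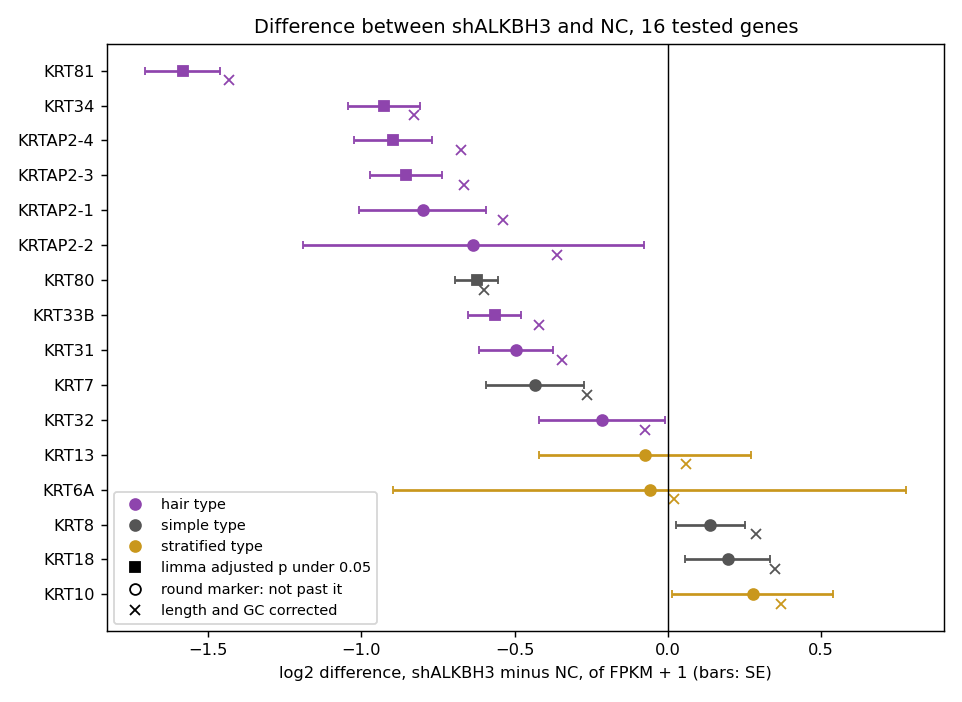
Log2 difference of FPKM + 1, shALKBH3 minus NC, for the 16 tested keratin genes, with the standard error as bars. Squares mark a limma adjusted p under 0.05 and crosses the difference once corrected for transcript length and GC content. Hair-type genes (purple) all lie left of 0, while KRT8, KRT18 and KRT10 lie right of it.

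Among the other hair-type genes, none passed the test. KRT31, a type I cortex keratin, was at 1.94, 2.43 and 1.90 FPKM in shALKBH3, against 3.12, 3.46 and 3.47 FPKM in NC (log2 difference -0.50, limma adjusted p = 0.124). KRTAP2-1 was at 2.01, 1.87 and 1.22 FPKM in shALKBH3, against 2.69, 3.88 and 4.64 FPKM in NC (log2 difference -0.80, adjusted p = 0.143). In these 2 genes the groups were apart, although neither met the threshold. For KRT32, a keratin of the hair cuticle, the log2 difference was -0.21 (adjusted p = 0.619), and for KRTAP2-2 it was -0.63 (adjusted p = 0.583), and both had overlapping groups.

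KRT86, KRT38 and KRTAP1-5 were under the level needed for the test. KRT86, a type II cortex keratin, was at 0.663, 0.675 and 0.615 FPKM in shALKBH3, against 1.26, 1.07 and 1.5 FPKM in NC. All of its sum was given to KRT86-202 in the shALKBH3 libraries and NC replicate 1, and to KRT86-201 in NC replicates 2 and 3. KRT38, a type I cortex keratin, was higher in the knockdown, with 1.20, 1.24 and 1.04 FPKM in shALKBH3, against 0.402, 0.887 and 0.443 FPKM in NC. KRTAP1-5 had 0.944, 1.24 and 0.914 FPKM in shALKBH3, against 0.735, 0.465 and 0.880 FPKM in NC. The groups did not overlap in any of the 3, but all lie near the listing limit, where only a higher group brings a gene into the tables.

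By count, 6 of the 16 tested genes fell and 0 rose, against 0.477% of all 10475 tested genes lower and 1.28% higher at that threshold. Every knockdown library lay below every control in 9 of the 16, against 12.0% of all tested genes, and every one above in 0 of the 16, against 12.9%. These genes were chosen with the values known, so nothing is read from these shares. The median log2 difference was -0.53 over the 16 and -0.01 over all tested genes. Of 9 tested hair-type genes 5 fell, with a median of -0.80, and all 9 differences were negative, against 5376 of all 10475 tested genes. The 3 hair-type genes too low to test are not in these counts. Among them KRT38 and KRTAP1-5 were higher in shALKBH3 and KRT86 lower, each with the groups apart. Of 4 tested simple epithelial genes 1 fell (KRT80), with a median of -0.15, and of 3 tested stratified epithelial genes 0 passed in limma. In bulk RNA, fewer cells that express a gene and less RNA per cell cannot be told apart.

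Hair-type FPKM over KRTAP2-3, KRT33B, KRT34, KRTAP2-4 and KRT81 summed to 171, 152 and 159 in shALKBH3 replicates 1, 2 and 3, against 289, 256 and 321 in NC replicates 1, 2 and 3. The ratio of the means was 0.556, and the groups did not overlap. Simple epithelial FPKM over KRT8, KRT18, KRT80, KRT7 and KRT19 summed to 634, 510 and 578 in shALKBH3, against 509, 533 and 596 in NC, with a ratio of 1.05 and overlapping groups. The 12 hair-type genes made up 22.2% ± 0.813 of the 21-gene FPKM in shALKBH3 and 34.8% ± 1.47 in NC (SD, 3 libraries each). Both sets include keratin-associated protein genes, which are not keratins. Of these, KRTAP2-3 alone averaged 108 FPKM in shALKBH3 and 197 FPKM in NC, the largest part of the hair-type sums. No test was made on these sums, because their members were chosen with the levels known.

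Type I keratins summed to 331 ± 35.9 FPKM in shALKBH3 and 323 ± 20.6 FPKM in NC, and type II keratins to 322 ± 20.9 FPKM in shALKBH3 and 332 ± 31.5 FPKM in NC (SD, 3 libraries each). Type II over type I was 0.975 ± 0.0497 in shALKBH3 and 1.03 ± 0.0499 in NC. Most of both sums is KRT8 and KRT18. Hair keratins alone, without the associated proteins, summed to 51.8 ± 3.74 FPKM in shALKBH3 and 85.6 ± 6.41 FPKM in NC.

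**Figure D3:**
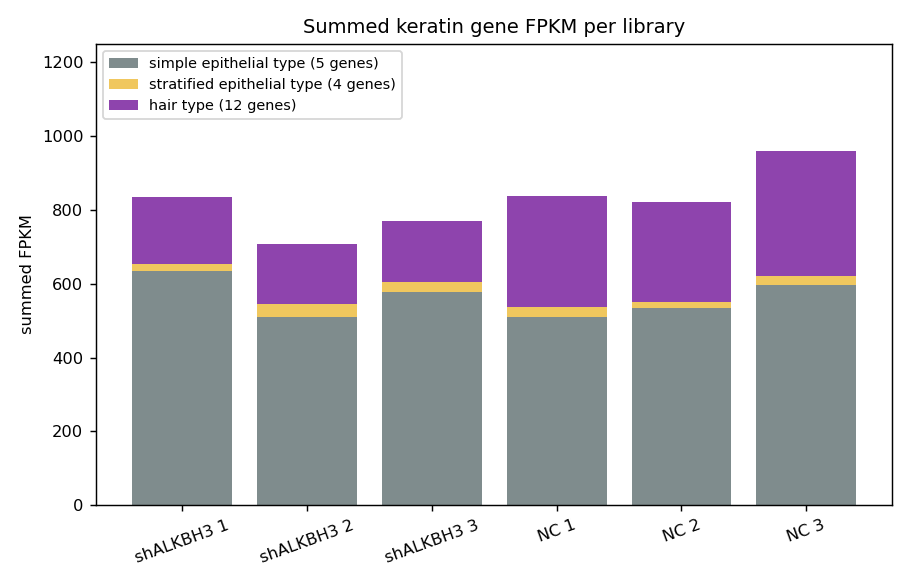
Summed FPKM (vertical axis, from 0) of simple epithelial, stratified epithelial and hair-type genes in each library, shALKBH3 left and NC right. The hair-type part is 164 to 181 FPKM in shALKBH3 and 272 to 339 FPKM in NC, while the simple epithelial part overlaps between the groups.

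KRT80 was the gene outside the hair type that fell. Its sum was 54.2, 51.5 and 49.3 FPKM in shALKBH3 replicates 1, 2 and 3, against 77.4, 83.0 and 80.1 FPKM in NC replicates 1, 2 and 3. The groups stood apart, and KRT80 fell by 0.62 on the log2 scale (SE 0.0714, limma adjusted p = 0.0170). The call held without shALKBH3 replicate 1 (adjusted p = 0.0451) and was lost without any other single library (0.0560 to 0.101).

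Below the sum, the division of KRT80 between its 2 listed transcripts was not stable. KRT80-202 was at 1.5, 31.7 and 31.0 FPKM in shALKBH3 replicates 1, 2 and 3, against 57.8, 63.1 and 63.2 FPKM in NC. KRT80-201 was at 52.7, 19.8 and 18.3 FPKM in shALKBH3, against 19.5, 19.8 and 16.9 FPKM in NC. In shALKBH3 replicate 1, 97.2% of the sum was given to KRT80-201, against 37.1% to 38.4% in the other knockdown libraries and 21.1% to 25.2% in NC. Neither transcript passed alone (adjusted p = 0.555 for KRT80-202 and 0.719 for KRT80-201). The gene sum varied far less between the knockdown libraries than either transcript.

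KRT18 and KRT10 were also divided unevenly. KRT18-202 was at 97.0, 3.17 and 106 FPKM in shALKBH3, against 4.54, 88.0 and 0.838 FPKM in NC, high in some libraries of both groups. KRT10-202 was at 2.93, 28.6 and 4.80 FPKM in shALKBH3, against 4.55, 3.62 and 1.66 FPKM in NC. The gene sum of KRT10, a keratin of upper epidermal layers, was 15.0, 28.7 and 15.0 FPKM in shALKBH3 and 15.7, 13.2 and 17.1 FPKM in NC, so its high library is the one in which the short KRT10-202 takes 99.8% of the sum. KRT10 did not pass (log2 difference 0.28, adjusted p = 0.616). The 21 genes had 34 listed transcripts, and 15 genes had 1 each. Of 26 member transcripts tested singly 1 was lower (KRT81-201, limma adjusted p = 0.0261) and 0 higher, against 0.122% lower and 0.350% higher of 19698 transcripts.

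**Figure D4:**
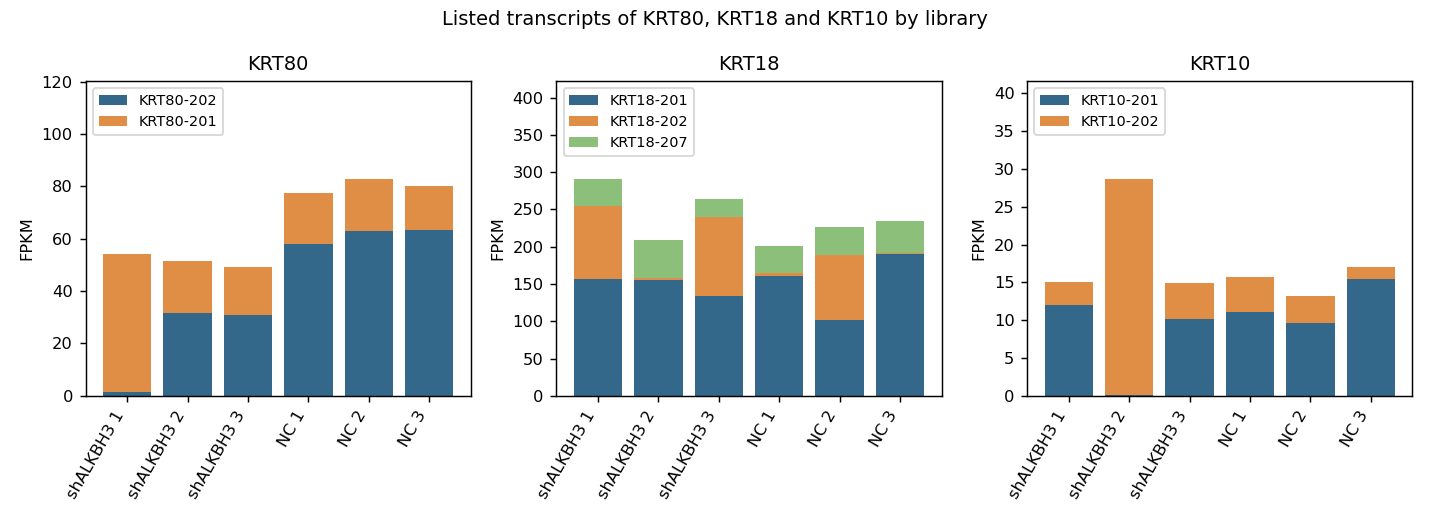
FPKM (vertical axes, from 0) of the listed transcripts of KRT80, KRT18 and KRT10, stacked to the gene sum, in shALKBH3 and NC libraries. KRT80 sums separate the groups at 49.3 to 54.2 against 77.4 to 83.0 FPKM, although shALKBH3 replicate 1 gives nearly all of it to KRT80-201.

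Several members have close copies, so fragments could be assigned to the wrong one. As a measure, every 50-base stretch of a listed transcript was looked up in the transcripts of all other GENCODE genes. For KRTAP2-3 39.7% of stretches occur in another gene, for KRTAP2-4 52.6%, for KRTAP2-1 63.8% and for KRTAP2-2 62.7%, in each case another KRTAP2 gene. Over 428 aligned positions KRTAP2-3 and KRTAP2-4 were 99.5% identical. KRTAP2-3 held 91.7% ± 0.569 of the KRTAP2 sum in shALKBH3 and 90.7% ± 2.15 in NC (SD, 3 libraries each). The 4 KRTAP2 genes together were at 118 ± 7.01 FPKM in shALKBH3 and 217 ± 27.4 FPKM in NC. Counted as 1 gene they fell by 0.87 on the log2 scale (limma adjusted p = 0.0230).

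For KRT81, 44.6% of stretches occur in another gene and 38.4% in KRT86. The gene bodies of KRT81 and KRT86 also overlap on opposite strands by 5622 bases in GENCODE 29. Those of KRT7 and KRT86 overlap on the same strand by 2887 bases, and those of KRT8 and KRT18 on opposite strands by 1084 bases. The library protocol keeps the strand, but the sources used here do not say whether counting used it. Summed into 1 gene, KRT81 and KRT86 fell by 1.46 on the log2 scale (limma adjusted p = 0.00441). For KRT33B 27.7% of stretches occur in another gene, mainly KRT33A, which was not listed, and for KRT34 11.4%. KRT8 and KRT18 share 41.3% and 31.8% of the stretches of their most abundant transcripts with other genes, the pseudogenes KRT8P3 and KRT18P11 among them. KRT80 shares 0.420% at most.

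Of the 5 genes of hair type that fell, 4 lie among neighbours of the family on chromosome 17, and KRT81 lies on chromosome 12. In the RefSeq gene order KRTAP2-1, KRTAP2-2, KRTAP2-3 and KRTAP2-4 follow each other, and so do KRT33B, KRT34 and KRT31. KRT81 adjoins KRT86. RefSeq promoters (GRCh38.p14) were found for 12 of the 21 genes, and not for KRT81 and KRT80, which also fell. The adjacent pairs KRTAP2-3 with KRTAP2-4 and KRT33B with KRT34 fell, while KRTAP2-1, KRTAP2-2 and KRT31 of the same runs did not pass. The 100 bases before the start are shown for KRTAP2-3, KRTAP2-4, KRT34 and KRT33B, which fell, and for KRT31, which did not pass. They are read 5′ to 3′ on the minus strand, in lower case, with each TATAAA (the core of a TATA box) in capitals, from chr17:41060115-41060214 (KRTAP2-3), chr17:41065880-41065979 (KRTAP2-4), chr17:41382307-41382406 (KRT34), chr17:41369814-41369913 (KRT33B) and chr17:41397609-41397708 (KRT31).
KRTAP2-3: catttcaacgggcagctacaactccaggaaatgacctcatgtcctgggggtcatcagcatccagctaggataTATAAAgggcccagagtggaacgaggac
KRTAP2-4: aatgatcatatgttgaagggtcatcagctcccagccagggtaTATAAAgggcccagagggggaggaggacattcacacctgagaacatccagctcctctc
KRT34: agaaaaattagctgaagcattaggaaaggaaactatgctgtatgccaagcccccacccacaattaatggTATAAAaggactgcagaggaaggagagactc
KRT33B: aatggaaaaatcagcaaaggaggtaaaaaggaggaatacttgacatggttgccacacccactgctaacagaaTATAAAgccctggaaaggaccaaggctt
KRT31: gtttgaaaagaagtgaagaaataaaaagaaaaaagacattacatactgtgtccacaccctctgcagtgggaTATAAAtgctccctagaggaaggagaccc

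The TATAAA letters begin 28 bases before the annotated start in KRTAP2-3 and KRT33B, 29 in KRT31, 31 in KRT34 and 58 in KRTAP2-4. They occur on the same strand within these 100 bases in 10 of the 12 members with a promoter, and in 3.51% of all 35116 promoters. The 10 include the 4 KRTAP2 genes, so the 10 are not independent. Between pairs of these 4, only 53 to 138 positions of the 250 bases upstream aligned, and these were 78.3% to 92.6% identical. KRT10, which did not pass, is among the 10, and KRT8 and KRT32 are the 2 without. CTTTGAA, the core bound by LEF1 and its relatives and known from hair keratin promoters, was searched on both strands over 250 bases. It occurs in 5 of the 12 (KRT31, KRT32, KRT33B, KRT38 and KRTAP1-5) and in 3.80% of all promoters. TGACTCA, the core of an AP-1 site, occurs in 0 of the 12 and in 4.20% of all promoters. Of the 5 genes with CTTTGAA, KRT33B fell and the other tested ones, KRT31 and KRT32, did not pass. A match describes letters only.

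Transcript length moved with the differences over all genes. The median log2 difference was -0.16 in the shortest 2095 of the tested genes (207 to 1632 nucleotides) and 0.11 in the longest (4996 to 27175 nucleotides). KRTAP2-3 and KRTAP2-4 have transcripts of 875 and 764 nucleotides and lie among these shortest genes, as does KRT33B with 1607. The part of length in their differences was not tested beyond the correction that follows. With transcript length and GC content corrected for, the log2 differences were -0.66 for KRTAP2-3 (limma adjusted p = 0.00690), -0.68 for KRTAP2-4 (0.0688), -0.42 for KRT33B (0.0392), -0.83 for KRT34 (0.00916), -1.43 for KRT81 (0.00211) and -0.60 for KRT80 (0.00681). The KRTAP2-4 call was thus lost and the other 5 held. For KRT8 and KRT18 the corrected differences were 0.29 and 0.35 (adjusted p = 0.0796 and 0.161).

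KRT6A, a keratin of wounded and fast-dividing epidermis, was measured in 2 libraries alone, 1 of each group. It was listed at 0, 0 and 3.28 FPKM in shALKBH3 replicates 1, 2 and 3, and at 3.84, 0 and 0 FPKM in NC replicates 1, 2 and 3. Of all 11387 genes, 4 were at 0 in the other 4 libraries and at 1 FPKM or more in shALKBH3 replicate 3 and NC replicate 1. They were KRT6A, S100A8, S100A9 and SPRR2A. All 4 are known from stressed squamous epithelium: S100A8 and S100A9 encode the subunits of calprotectin, and SPRR2A a cornified envelope protein. S100A8 was at 2.76 FPKM in shALKBH3 replicate 3 and 4.13 FPKM in NC replicate 1, S100A9 at 2.77 and 3.68 FPKM, and SPRR2A at 1.47 and 1.55 FPKM in the same libraries.

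KRT13, a keratin of mucosal epithelium, was also highest in these libraries within each group. It was at 3.67, 4.40 and 7.06 FPKM in shALKBH3, against 7.96, 2.97 and 5.68 FPKM in NC. Its libraries overlapped between the groups (log2 difference -0.08, adjusted p = 0.923). The pattern of these genes does not follow the groups. Whether the RNA of KRT6A, S100A8, S100A9 and SPRR2A came from 92.1 cells or was carried into these 2 libraries was not tested, so their values may not be expression of the line. Without NC replicate 1 and shALKBH3 replicate 3, an alternative chosen after the values were seen, the differences of the 6 genes that fell were -1.65 (KRT81), -0.97 (KRT34), -0.93 (KRTAP2-4), -0.84 (KRTAP2-3), -0.62 (KRT80) and -0.53 (KRT33B). With 4 libraries limma called 0 genes in all, and the adjusted p of KRT81 was 0.167.

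**Figure D5:**
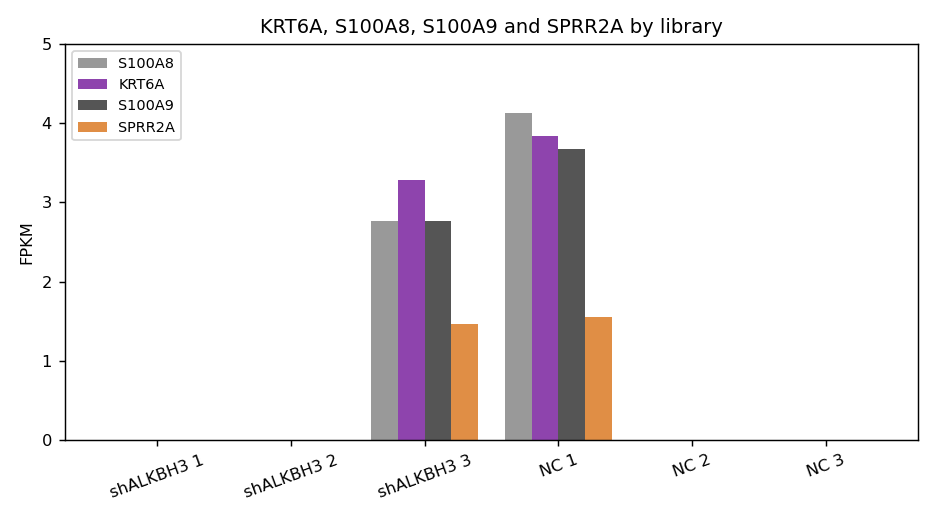
FPKM (vertical axis, from 0) of S100A8, KRT6A, S100A9 and SPRR2A in each library. The 4 genes are at 1.47 to 3.28 FPKM in shALKBH3 replicate 3 and at 1.55 to 4.13 FPKM in NC replicate 1, and at 0 in the other 4 libraries.

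Low keratins of simple and stratified type gave little more. KRT7, a keratin of glandular epithelium, was at 1.53, 0.971 and 0.924 FPKM in shALKBH3, against 1.82, 1.65 and 2.17 FPKM in NC. Its groups did not overlap, and it did not pass (log2 difference -0.43, limma adjusted p = 0.255). KRT15, a keratin of basal epidermal cells, was at 0.913 ± 0.0787 FPKM in shALKBH3 and 0.886 ± 0.0705 FPKM in NC (SD, 3 libraries each), with overlapping groups.

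Other intermediate filament genes were listed for 7 of 16 names, and 0 of the 6 tested passed in limma. VIM, which encodes vimentin, was at 1767, 1601 and 1799 FPKM in shALKBH3, against 2944, 2074 and 2544 FPKM in NC (log2 difference -0.54, adjusted p = 0.136). Its groups were apart, and its level was 2.24 ± 0.110 times the 21-gene keratin and keratin-associated FPKM in shALKBH3 and 2.90 ± 0.539 times in NC. For LMNA, the lamin A gene of the nuclear lamina, the log2 difference was 0.26 (adjusted p = 0.587).

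Genes that anchor keratins, namely plakins, desmosome parts and the hemidesmosome integrin, were listed for 15 of 23 names, and all 15 were tested. None passed in limma, while 6 were higher at an unadjusted p under 0.05 and 0 lower, against 8.98% of all tested genes higher and 8.15% lower. The median log2 difference was 0.15. The most abundant were the cytoskeletal linker MACF1 (0.07, adjusted p = 0.759) and the integrin chain ITGA6 (0.87, adjusted p = 0.138). ITGA6 was at 44.5, 64.4 and 48.3 FPKM in shALKBH3, against 29.2, 35.1 and 20.8 FPKM in NC. Its partner ITGB4, named after its values were seen, was at 29.9, 20.6 and 31.4 FPKM in shALKBH3, against 15.2, 12.2 and 13.8 FPKM in NC (log2 difference 0.92, adjusted p = 0.0749). Groups stood apart in both chains, with higher values in the knockdown.

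Of the tissues that normally hold these keratins, simple and stratified epithelium had mostly unlisted markers, and hair follicle markers were listed more often. Of 21 simple epithelium genes 6 were listed, with summed levels of 23.2 to 29.9 FPKM in shALKBH3 and 24.8 to 26.4 FPKM in NC, and EPCAM, CDH1, ESRP1 and GRHL2 had no listed transcript. KLF5 (log2 difference 0.06, limma adjusted p = 0.809) and AP1M2 (0.34, 0.520) were the most abundant. Of 21 stratified epithelium genes 7 were listed, with sums of 69.8 to 80.2 FPKM in shALKBH3 and 72.9 to 79.1 FPKM in NC, among them S100A2 (0.02, 0.952), while TP63 had no listed transcript. Of 17 hair follicle genes 9 were listed, with sums of 31.4 to 46.1 FPKM in shALKBH3 and 33.3 to 43.8 FPKM in NC, led by BMP4 (0.55, 0.544) and CUX1 (0.06, 0.902). The median log2 difference of the 7 tested follicle genes was -0.15, with 4 negative and 3 positive. Of these 7, groups were apart with lower values in 2 and with higher values in 0, against 12.0% and 12.9% of all tested genes. Groups were apart, with lower values in shALKBH3, in the homeobox gene MSX1 (-0.36, 0.290), in S100A3 of the hair cuticle (-0.42, 0.413), and in PADI3, a hair follicle arginine deiminase that was too low to test, all 3 named after their values were seen. HOXC13 and FOXN1, factors of hair keratin transcription, had no listed transcript. None of the 16 tested genes of these 3 lists passed in limma, with 2 lower and 1 higher at an unadjusted p under 0.05, beside 8.15% lower and 8.98% higher of all tested genes.

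Markers of other cell types were listed to differing extents. Of 6 fibroblast genes 4 were listed, led by FAP (log2 difference 0.12, limma adjusted p = 0.493) and COL1A1 (0.04, 0.877). The fibroblast sums were 61.9 to 64.0 FPKM in shALKBH3 and 54.4 to 69.4 FPKM in NC, above the melanocyte sums in every library. Of 4 leukocyte genes CD68 alone was listed, and it rose by 1.10 on the log2 scale (adjusted p = 0.0104), at 33.8, 37.4 and 37.1 FPKM in shALKBH3, against 14.7, 15.4 and 18.9 FPKM in NC. The defining leukocyte gene PTPRC had no listed transcript, and 0 of 3 endothelial genes were listed. Of the melanocyte genes GPR143 (-0.03, 0.908) and RAB38 (-0.34, 0.395) were the most abundant. MITF, the melanocyte master transcription factor, named after its values were seen, was at 11.1, 14.0 and 10.3 FPKM in shALKBH3, against 7.90, 9.53 and 3.29 FPKM in NC. Its groups were apart, and it did not pass (log2 difference 0.78, adjusted p = 0.315).

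Genes whose pattern over the 6 libraries was nearest to that of KRT81 were found by the root mean square distance of log2(FPKM + 1) centred on each gene's mean. The 5 nearest outside the family were ELK3 (distance 0.148), CSF2 (0.202), EGR1 (0.217), ALKBH3 (0.233) and LIMK1 (0.242). ELK3, an ETS transcription factor, was at 18.2, 18.1 and 16.2 FPKM in shALKBH3, against 55.2, 62.2 and 56.2 FPKM in NC. A gene this near to KRT81 is lower in shALKBH3 by the choice itself. The distance is a description over 6 libraries and carries no test.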

How the data were processed

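RNA of 6 samples was measured, 3 shALKBH3 and 3 NC. The authors deposited FPKM for each transcript, per the file headers. The submitters' processing notes name hg19, HTSeq 0.6.0 and DESeq2 without their roles, and the tool that estimated FPKM is not given in the sources used here. Values reach down to 1e-06, so whole reads could not be recovered and depth is unknown. Each table lists the same 28900 transcripts, of which 28796 (99.6%) matched GENCODE release 29 and 104 were left out. FPKM were summed per gene.

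Of 11387 genes, the 10475 averaging 1 FPKM or more were tested on log2(FPKM + 1), which understates changes of low genes. The test was limma 3.58.1 in R 4.3.3, with a variance trend, two-sided, Benjamini-Hochberg adjusted over all genes tested, at a threshold of 0.05. The script was tested on simulated data. Plots used matplotlib 3.10.9, and alignments Biopython 1.88. The design named 10 keratin genes, and the listing rule found 11 more. The members and lists were chosen with earlier results of these data known. Named genes were all members, ALKBH3, list genes past the threshold, the 2 most abundant of each list, and the 5 nearest to KRT81, apart from 1 list gene that is not reported here. Replicate numbers were not treated as pairs.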

Additional observations from a re-analysis of the deposited data

How the results depend on the processing

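The 6 genes that fell kept a negative difference under all 112 alternatives run on them, and in 50 of these the gene missed the threshold. The number of keratin genes lower was 6, and 2 with the most abundant transcript, 0 with the replicate block, 0 with the block and the length and GC correction, 1 to 3 when 1 library was left out, and 0 without NC replicate 1 and shALKBH3 replicate 3. Whether replicate numbers pair the samples is not given by the labels. Correlations of deviations for numbers 1, 2 and 3 were -0.0877, 0.0754 and -0.0116, and unlike numbers reached -0.141 and 0.142. With 3 libraries in each group these values cannot decide it. The block left 17 genes higher and 3 lower of all tested (27 and 2 with the correction), and KRT81 had an adjusted p of 0.0566. The ALKBH3 difference of -1.24 missed the threshold at -1.24 with the most abundant transcript, -1.24 with the block, -1.13 with block and correction and -1.29 without both libraries, and also without NC replicate 1 alone (-1.21, adjusted p = 0.0513), and ran from -1.32 to -1.17 without single libraries.

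Of all genes, 134 were higher and 50 lower. Counts were 80 and 25 with the most abundant transcript, and 0 and 0 without both libraries. Lower genes numbered 24 after rescaling and 27 without the variance trend. Without single libraries 39 to 87 were higher and 9 to 22 lower. Member transcripts lower numbered 1, and 0 with the block or without any single library. ITGB4 became the 1 called gene of the filament, linker, epithelial and follicle lists after rescaling, after the correction or without shALKBH3 replicate 2, so these gave 0 to 1.

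KRT10, KRT13, KRT32 and KRT6A, none of which passed, changed sign under some alternatives. KRT10, at 0.28 in the main fit, was -1.25 with the most abundant transcript and ran from -0.022 to 0.43 without single libraries. Without both libraries it kept its sign, at 0.44. KRT13 was 0.0043 after rescaling, 0.069 with the most abundant transcript and 0.058 after the correction, with or without the block, and ran from -0.40 to 0.19 without single libraries. KRT32 ran from -0.37 to 0.0019 and was 0.011 without both libraries. KRT6A was 0.019 after the correction, with or without the block, 0 without both libraries, and ran from -0.76 to 0.70. The causes were not tested. Depth is unknown, so no limit from depth can be given.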
